A study of Mus musculus with 7 samples.

Results

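Wnt signalling genes were compared between young adult and late embryonic mouse cerebral cortex. The 34 genes described are 9 Wnt ligands, 9 Frizzled receptors, the coreceptors Lrp5 and Lrp6, 4 secreted antagonists, 3 Dishevelled proteins, 4 genes of the beta-catenin destruction complex and 3 nuclear effectors. They were taken by exact symbol from a table of 36666 genes, and all 34 were found and passed the filter on low values, which kept 22828 genes. The adult group had 3 samples of young adult cortex, whose age in days or weeks is not given in the labels. The embryonic group had 4 samples of cortex at embryonic day 17. All 7 came from C57BL/6 mice, and no treatment or genetic change is named.

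Wnt proteins are lipid-modified signals that act over short distances by binding a Frizzled receptor together with Lrp5 or Lrp6. In the beta-catenin branch of the pathway, Dishevelled proteins then hold back a complex of Axin, Apc and Gsk3b that otherwise marks beta-catenin for destruction, and beta-catenin enters the nucleus and acts with Tcf and Lef factors. Other branches act on cell polarity and axon guidance without beta-catenin. In the cortex the pathway is known for patterning along the hem, for the expansion and differentiation of radial glia, for the growth of brain vessels and for the timing of oligodendrocyte maturation.

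Reads assigned to genes numbered 18444272 to 23606525 per library. The level of a gene is its count per 1000000 such reads (CPM), from read counts recovered from the deposited values. Differences are adult minus embryonic on the authors' variance-stabilized scale, which follows log2 at high values and understates the change of genes with few reads. They were tested with limma, with Benjamini-Hochberg adjustment over all 22828 genes and a threshold of 0.05. The labels do not say that each sample came from a separate animal, so the p-values speak only of how far these 7 samples spread, which may be technical.

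Most of the transcriptome differed between these ages. Across all genes tested, 35.8% were higher in adult cortex, 33.9% were lower and 69.7% passed in either direction. Cortical neuron markers were present in both groups, with a summed level of 1609 to 1724 CPM in adult and 1594 to 1724 CPM in embryonic samples. Markers of tissue next to the cortex also moved. All 8 markers of the hem and choroid plexus were higher in adult samples, at 594 to 732 CPM in all against 1.83 to 3.28 CPM in embryonic samples, and most of that sum was Ttr, at 604 CPM in adult and 0.195 CPM in embryonic samples. All 7 markers of the striatum were higher too, at 735 to 856 CPM in adult and 90.3 to 99.2 CPM in embryonic samples. Of 6 markers of the hippocampus and dentate gyrus, 4 were higher and 2, Zbtb20 and Lhx2, were lower. Their sum ran the other way, at 280 to 351 CPM in adult and 410 to 509 CPM in embryonic samples. In bulk tissue, fewer cells of a type and less RNA per cell cannot be told apart, and the part of any of these cell populations in the Wnt results was not tested.

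Of the 34 genes, 11 were higher and 16 lower in adult cortex, and 7 did not pass. These calls stand beside 69.7% of all genes, so the number of calls by itself is not a result about Wnt genes. The median difference over the 34 genes was -0.26, against 0.03 over all genes tested. With a difference of at least 1 as well, 9 genes were higher and 8 lower, against 21.9% and 15.6% of all genes. The CPM of the adult and embryonic samples did not overlap in 24 of the 34 genes, and in 69.4% of all genes tested. The genes divided within every role of more than 2 genes except the Dishevelled and the nuclear factors, where all calls went one way.

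**Figure D1:**
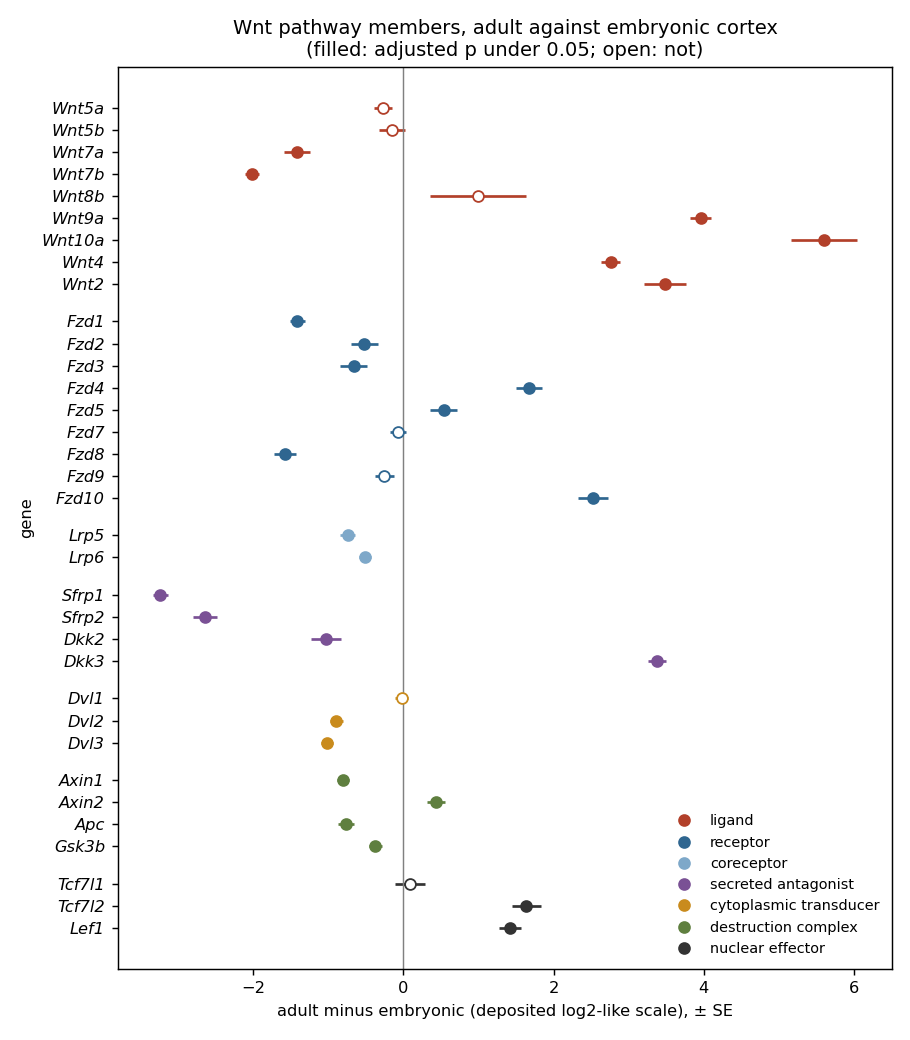
Difference between adult and embryonic cortex for each of the 34 Wnt genes (rows, grouped by role), as adult minus embryonic on the deposited log2-like scale, with bars for the SE. Filled points passed an adjusted p of 0.05 in limma and open points did not. Wnt10a (5.60) lies farthest to the right and Sfrp1 (-3.23) farthest to the left.

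Among the ligands, Wnt9a, Wnt4, Wnt10a and Wnt2 were higher in adult cortex, Wnt7b and Wnt7a were lower, and Wnt5a, Wnt5b and Wnt8b did not pass. Wnt7b and Wnt7a are the closely related ligands that neural progenitors and neurons present to growing brain vessels. Wnt7b had 39.2, 39.5 and 31.9 CPM in adult samples, against 161, 174, 162 and 145 CPM in embryonic samples. The groups lay far apart, and the adult mean of 36.9 ± 4.32 CPM was 0.23 times the embryonic mean of 160 ± 11.6 CPM (SD, n = 3 and n = 4). The difference was -2.01 ± 0.09 (SE, limma adjusted p = 2.4e-10). Wnt7a had 9.6, 17.6 and 10.2 CPM in adult samples, against 38.2, 36.7, 36 and 30.3 CPM in embryonic samples. Adult replicate 2 was the highest of its group but stayed below every embryonic sample. The difference of Wnt7a was -1.41 ± 0.17 (SE, limma adjusted p = 4.52e-06), and it lay between -1.68 and -1.26 when each sample was left out in turn.

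The 4 ligands that were higher in adult cortex started from few or almost no reads at embryonic day 17. Wnt9a, known from joint formation, had 22.6, 19.5 and 21.8 CPM in adult samples, against 1.03, 1.06, 1.18 and 0.832 CPM in embryonic samples. Its adult mean was 20.8 times the embryonic mean, a difference of 3.96 ± 0.14 (SE, limma adjusted p = 1.16e-11). Wnt4, known from kidney and ovary development, had 20.8, 24.4 and 19.9 CPM in adult samples, against 3.2, 2.97, 3.01 and 2.4 CPM in embryonic samples, a difference of 2.76 ± 0.13 (SE, limma adjusted p = 2.03e-10). In both genes every adult sample exceeded every embryonic sample by several fold. Wnt10a, known from teeth and skin appendages, had 108, 127 and 101 reads in adult samples, while the embryonic samples had 0, 0, 0 and 2 reads. Its summed reads of 336 in adult and 2 in embryonic samples gave a rate ratio of 204, with an exact 95% interval of 55.9 to 1688 that covers counting error only. The fitted difference of Wnt10a was 5.60 ± 0.44 (SE, limma adjusted p = 5.6e-08). Wnt2 had 92, 76 and 90 reads in adult samples, against 1, 3, 6 and 4 reads in embryonic samples. The rate ratio of Wnt2 was 22.3, with an exact 95% interval of 13.1 to 41.4, and its fitted difference was 3.48 ± 0.28 (SE, limma adjusted p = 7.86e-08).

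The other 3 ligands did not pass the test. Wnt5a, the ligand best known for signalling without beta-catenin, had 15.4, 10.7 and 12.3 CPM in adult samples, against 17.5, 17, 14.3 and 16.9 CPM in embryonic samples. The groups overlapped in a single adult sample, and the difference was -0.27 ± 0.12 (SE, limma adjusted p = 0.0574). Wnt5a passed as lower under several other settings, with a difference of -0.46 and an adjusted p of 0.00425 once every sample was centred on its median. Wnt5b, its close relative, averaged 2.29 ± 0.451 CPM in adult and 2.74 ± 0.452 CPM in embryonic samples (SD, n = 3 and n = 4), with a difference of -0.15 ± 0.17 (SE, limma adjusted p = 0.453). Wnt8b, a ligand of the embryonic hem and hippocampal primordium, had 8 reads in all in adult samples and 5 in embryonic samples. Its rate ratio of 1.94 had an exact 95% interval of 0.559 to 7.53, so a difference was not detectable at this depth (limma adjusted p = 0.189).

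**Figure D2:**
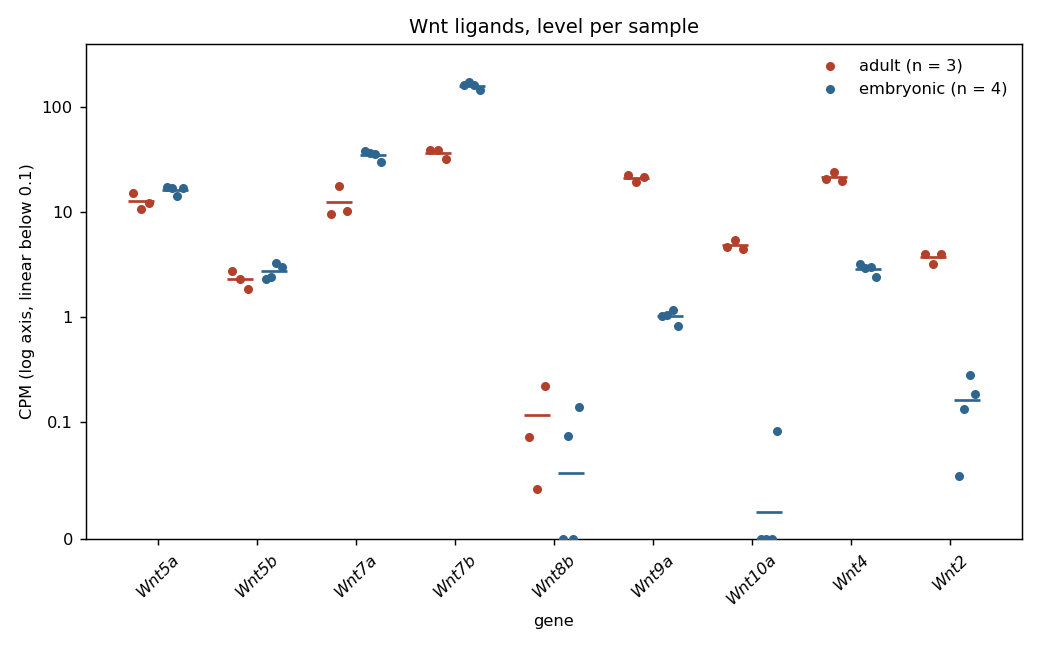
Level of the 9 Wnt ligands in each sample, in CPM on a log axis that is linear below 0.1, with adult samples (n = 3) left of embryonic samples (n = 4) and a line at each mean. Wnt7a and Wnt7b are lower in every adult sample, and Wnt9a, Wnt10a, Wnt4 and Wnt2 are higher in every adult sample.

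Because longer transcripts collect more reads, levels of different ligands were set side by side only per kilobase of exon. On this scale the 9 ligands summed to 29.5, 31.1 and 26.9 CPM per kb in adult samples, against 49.1, 51.2, 48.6 and 43.5 CPM per kb in embryonic samples. Wnt7b alone made up 27.2, 25.9 and 24.2% of the adult sums, against 66.9, 69.2, 67.9 and 68.2% of the embryonic sums. Together Wnt7a and Wnt7b held 36.1 to 43.7% in adult and 90.1 to 91.8% in embryonic samples. The embryonic ligand RNA was thus nearly all from this pair, while in adult samples it was spread over several ligands. Wnt9a held 18.8 to 24.4% and Wnt4 16.8 to 18.7% in adult samples, against 0.575 to 0.727% and 1.32 to 1.55% in embryonic samples. Wnt9a, Wnt4, Wnt10a and Wnt2 added up to 49.1 to 55.3% in adult and 2.12 to 2.46% in embryonic samples. These shares describe the chosen ligands and were not tested.

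Wnt7b also differed in which first exon its reads came from, a readout of the separate exon table that the choice of genes did not use. The gene lies on the minus strand of chromosome 15, and its 6 exon rows matched GENCODE M21 exons by their spacing. The exon starting at 85407938 (mm9) is exon 1 of transcript Wnt7b-204, and the exon starting at 85411810 is exon 1 of Wnt7b-201 and Wnt7b-202. The coding bases of these first exons differ, so Wnt7b-204 and Wnt7b-202 encode different beginnings of the protein before the exons they share. The sequences are from GRCm38, on the minus strand, 5′ to 3′, at chr15:85577508-85577590 for Wnt7b-204 and chr15:85581380-85581450 for Wnt7b-202, with the start codon in capitals:
Wnt7b-204: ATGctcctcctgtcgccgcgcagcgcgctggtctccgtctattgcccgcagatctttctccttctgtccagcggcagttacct
Wnt7b-202: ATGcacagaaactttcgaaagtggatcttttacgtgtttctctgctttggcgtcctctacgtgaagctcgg
The stretches hold 83 coding bases in Wnt7b-204 and 71 in Wnt7b-202, and the whole coding regions hold 353 and 349 codons without the stop. Wnt7b-201 is annotated with an earlier start codon in the exon it shares with Wnt7b-202. It has 96 coding bases there and 356 codons without the stop. Reads of that exon thus do not tell the protein beginnings of Wnt7b-201 and Wnt7b-202 apart.

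The exon of Wnt7b-204 held 5.88, 4.55 and 5.56% of the gene's reads in adult samples, against 1.85, 1.41, 1.45 and 2% in embryonic samples. The exon shared by Wnt7b-201 and Wnt7b-202 held 1.67, 2.86 and 1.67% in adult samples, against 4.76, 4.55, 4 and 4.76% in embryonic samples. Neither exon overlapped between the groups, and the order of the shares was reversed. In every adult sample the Wnt7b-204 exon held the larger share, and in every embryonic sample the other. Exon lengths were not taken into account, so the shift between the groups can be read, but not which start was used more. The deposited exon value runs opposite to the share. Relative to the gene's other exons, it differed by -5.36 for the Wnt7b-204 exon, adult minus embryonic (limma diffSplice adjusted p = 1.32e-10). For the exon of Wnt7b-201 and Wnt7b-202 the relative difference was 4.85 (limma diffSplice adjusted p = 1.4e-09). Both exons also passed when each was tested on its own spread, with limma adjusted p of 0.0018 and 0.0023. In reads, the estimate for the Wnt7b-204 exon was 52.9, 42.4 and 40.3 in adult and 54.9, 55.2, 49.8 and 62.9 in embryonic samples, a level of 1.96 ± 0.302 CPM against 2.67 ± 0.32 CPM (SD, n = 3 and n = 4). For the other exon it was 15, 26.7 and 12.1 reads in adult and 141, 178, 137 and 150 reads in embryonic samples, or 0.772 ± 0.316 CPM against 7.23 ± 0.657 CPM (SD, n = 3 and n = 4). The larger gap in level between the groups was thus at the start of Wnt7b-201 and Wnt7b-202; the levels themselves were not tested. A further first exon, that of Wnt7b-203 at 85410681, rested on 3, 4 and 3 reads in adult and 2, 4, 5 and 5 reads in embryonic samples, and its call (limma diffSplice adjusted p = 0.0424) was lost on its own spread (adjusted p = 0.164).

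**Figure D3:**
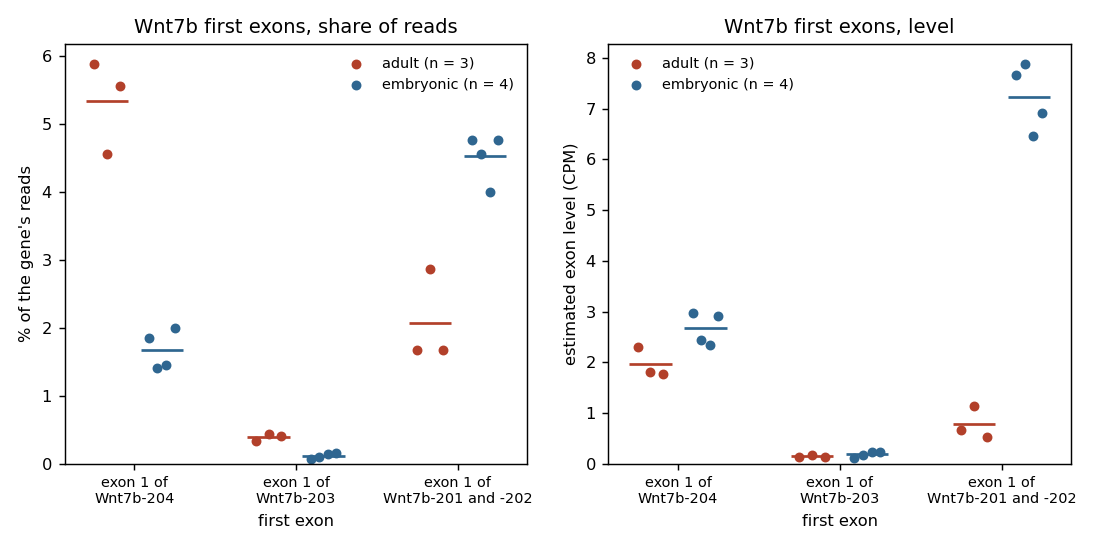
Reads of the 3 first exons of Wnt7b in each sample, as a percentage of the gene's reads (left) and as an estimated level in CPM (right), with adult samples (n = 3) left of embryonic samples (n = 4) and a line at each mean. The Wnt7b-204 exon has the larger share in adult samples (5.33% against 1.68%), and the exon of Wnt7b-201 and Wnt7b-202 the larger share in embryonic samples (2.06% in adult against 4.52%).

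Exon values were available for 10 of the 34 genes, with 112 exons tested. Under diffSplice, 10 exons in 6 genes passed, against 4.87% of the 86199 exons tested, and on each exon's own spread 4 exons in 3 genes passed, against 1.89%. On simulated data diffSplice also called many exons in genes where no exon had been moved, so its adjusted p alone is weak evidence, and the test on each exon's own spread recovered none of the moved exons, so a miss there does not show that an exon did not move. Apart from Wnt7b, exons of Apc and Lrp6 passed both tests. Exon 2 of Apc, the scaffold of the destruction complex, starting at 34420659 on chromosome 18 (mm9), held 0.215, 0.435 and 0.315% of the gene's reads in adult samples, against 0.98, 1.16, 0.769 and 0.826% in embryonic samples. Every adult share was below every embryonic share (limma diffSplice adjusted p = 3.76e-06, own spread 0.00985). Exon 2 of Lrp6, which was chosen after its values were seen, held 5.4 ± 0.576% in adult and 3.82 ± 0.256% in embryonic samples (SD, n = 3 and n = 4; limma diffSplice adjusted p = 0.0358, own spread 0.0463), and its diffSplice call was lost when any sample but adult replicate 3 was left out. The other named exons passed diffSplice and failed on their own spread. Among them, the first exon of Dkk3-201 held 1.69, 1.64 and 0.769% in adult and 0.87, 0.188, 0.152 and 0.169% in embryonic samples. These shares overlapped between the groups (limma diffSplice adjusted p = 0.0223, own spread 0.0752). Its estimated reads, 111, 85 and 53.8 in adult and 3.99, 1, 1 and 1 in embryonic samples, also carry the change of the whole gene. The others were exon 1 of Dvl3-203 with 4.45 ± 1.61% in adult and 2.59 ± 0.204% in embryonic samples, exon 1 of Lrp6-201 with 2.07 ± 0.567% in adult and 1.18 ± 0.313% in embryonic samples, and an exon of Axin1 at 26319435 on chromosome 17 with 2.76 ± 0.505% in adult and 4.5 ± 0.855% in embryonic samples (SD, n = 3 and n = 4 each). An exon of Apc at 34449698 had 1 to 3 reads per sample.

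Of the 9 Frizzled receptors, 3 were higher in adult cortex, 4 were lower and 2 did not pass. The members of the Fzd1, Fzd2 and Fzd7 subfamily did not move alike. Fzd1 had 16.2, 17.5 and 14.6 CPM in adult samples, against 51.5, 49.9, 41.7 and 44.6 CPM in embryonic samples, with no overlap and a difference of -1.41 ± 0.10 (SE, limma adjusted p = 1.59e-08). Fzd2 had 21.5, 11.9 and 15 CPM in adult samples, against 26.7, 30.9, 19.8 and 21 CPM in embryonic samples. Adult replicate 1 lay inside the embryonic range, and the difference of -0.52 ± 0.18 (SE, limma adjusted p = 0.0187) did not pass without adult replicate 2, without adult replicate 3, without embryonic replicate 1 or without embryonic replicate 2, with adjusted p of 0.104, 0.0562, 0.0639 and 0.068, nor in a fit without the mean-variance trend (adjusted p = 0.0848). Fzd7 averaged 11.3 ± 1.59 CPM in adult and 12.5 ± 1.08 CPM in embryonic samples (SD, n = 3 and n = 4), with a difference of -0.07 ± 0.11 (SE, limma adjusted p = 0.61).

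Fzd8 and Fzd5, which form another subfamily, went in opposite directions. Fzd8 had 5.5, 6.61 and 4.62 CPM in adult samples, against 20.6, 22.6, 14.1 and 19 CPM in embryonic samples, a difference of -1.57 ± 0.15 (SE, limma adjusted p = 5.54e-07). Fzd5, known from eye development, had 3.8, 4.7 and 2.99 CPM in adult samples, against 2.98, 3.14, 2.12 and 2.26 CPM in embryonic samples. The Fzd5 groups overlapped at the edge, and its difference of 0.54 ± 0.18 (SE, limma adjusted p = 0.0154) fell short without adult replicate 2, at 0.40 with an adjusted p of 0.0807, and after centring on sample medians, at 0.36 with an adjusted p of 0.0827. Fzd3, a receptor needed for the growth of long axon tracts of the forebrain, had 42.8, 32.1 and 34.1 CPM in adult samples, against 72.2, 71.7, 38.9 and 68.3 CPM in embryonic samples. Embryonic replicate 3 lay within the adult range and apart from its own group. The difference of Fzd3 was -0.66 ± 0.18 (SE, limma adjusted p = 0.00491), and -0.87 without embryonic replicate 3. It did not pass when low genes were kept in the fit (adjusted p = 0.099).

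Fzd4, Fzd9 and Fzd10 belong to one subfamily. Fzd4, which also binds the ligand Norrin on brain and retinal endothelium, had 12.2, 8.77 and 9.81 CPM in adult samples, against 2.93, 3.41, 2.16 and 3.7 CPM in embryonic samples. All adult samples were above all embryonic samples, a difference of 1.67 ± 0.17 (SE, limma adjusted p = 5.88e-07). Beside it, 6 of 8 markers of endothelium and pericytes were higher in adult samples, and the other 2, Cldn5 and Cdh5, did not pass. The sum of all 8 was 323 to 353 CPM in adult and 184 to 202 CPM in embryonic samples. The part of endothelium in the difference of Fzd4 was not tested. Fzd10 had 3.27, 4.91 and 3.52 CPM in adult samples, against 0.542, 0.354, 0.471 and 0.462 CPM in embryonic samples, a difference of 2.52 ± 0.20 (SE, limma adjusted p = 6.76e-08). Fzd9 averaged 4.11 ± 0.591 CPM in adult and 5.25 ± 0.138 CPM in embryonic samples (SD, n = 3 and n = 4). Its groups did not overlap, yet its difference of -0.25 ± 0.13 (SE, limma adjusted p = 0.0985) did not pass, while it passed as lower after centring on sample medians, at -0.43 with an adjusted p of 0.00728, and without adult replicate 2, at -0.36 with an adjusted p of 0.0282.

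Per kilobase, the 9 chosen Frizzled receptors summed to 18.1 to 21.8 CPM per kb in adult and 26.3 to 35.8 CPM per kb in embryonic samples. Fzd6, at 9.53 CPM in adult and 6.93 CPM in embryonic samples, is not among them. The shares were not tested. Fzd1 held 17.7 to 22.2% of that sum in adult samples, against 33.2 to 37.8% in embryonic samples. Fzd2 held 17.3 to 26.9% in adult and 18.5 to 23.6% in embryonic samples, and these ranges overlapped. Fzd4 and Fzd10 were minor at both ages, with 6.96 to 8.31% and 4.62 to 8.07% in adult samples, against 1.23 to 1.77% and 0.305 to 0.551% in embryonic samples. The receptor mixture was thus less concentrated on one gene than the ligand mixture at embryonic day 17.

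**Figure D4:**
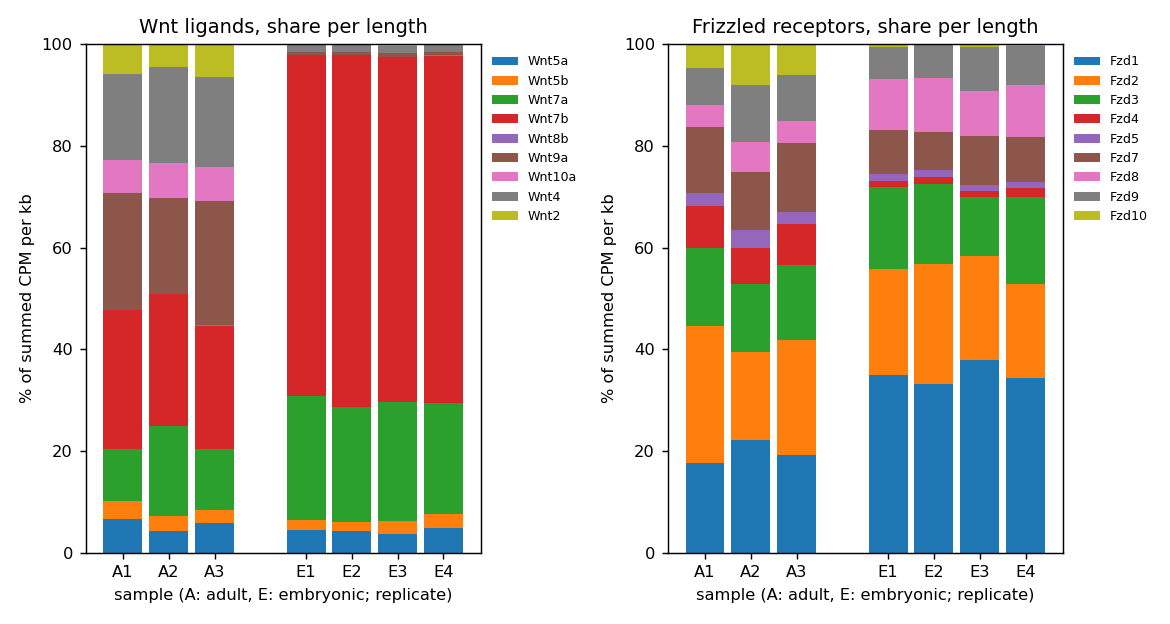
Share of each gene in the summed level per kilobase of the 9 ligands (left) and the 9 Frizzled receptors (right), as a percentage, 1 bar per sample with the 3 adult samples left of the 4 embryonic samples. Wnt7b holds 24.2 to 27.2% of the ligand sum in adult and 66.9 to 69.2% in embryonic samples, and Fzd1 holds 17.7 to 22.2% of the receptor sum in adult and 33.2 to 37.8% in embryonic samples.

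Both coreceptors were lower in adult cortex. Lrp6, the main coreceptor of the beta-catenin branch, had 73.7, 71.4 and 76 CPM in adult samples, against 117, 114, 101 and 115 CPM in embryonic samples, a difference of -0.51 ± 0.08 (SE, limma adjusted p = 3.46e-05). Lrp5 had 15.9, 15.5 and 16.5 CPM in adult samples, against 29.6, 34.1, 27 and 25.6 CPM in embryonic samples, a difference of -0.74 ± 0.10 (SE, limma adjusted p = 1.87e-05). Neither gene overlapped between the groups. Per kilobase Lrp6 was above Lrp5 at both ages, at 5.39 ± 0.169 against 1.64 ± 0.0511 CPM per kb in adult and 8.17 ± 0.534 against 2.99 ± 0.381 CPM per kb in embryonic samples (SD, n = 3 and n = 4).

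The secreted antagonists held the steepest falls among the 34 genes and one of the steeper gains. Sfrp1 and Sfrp2 are secreted Frizzled-related proteins that bind Wnt ligands outside the cell, and Sfrp1 is a known product of cortical radial glia. Sfrp1 had 11.7, 10.8 and 9.41 CPM in adult samples, against 114, 127, 103 and 107 CPM in embryonic samples. The adult mean was 0.0941 times the embryonic mean, a difference of -3.23 ± 0.10 (SE, limma adjusted p = 3.11e-12). Sfrp2 had 2.27, 2.67 and 1.45 CPM in adult samples, against 17.3, 18, 14.6 and 16.7 CPM in embryonic samples, a difference of -2.64 ± 0.16 (SE, limma adjusted p = 3.28e-09). Markers of radial glia and of dividing cells were lower beside them. Of 9 radial glia markers, 6 were lower and 2 higher, with a sum of 672 to 709 CPM in adult and 1410 to 1485 CPM in embryonic samples. Most of the adult sum was Slc1a3, also a gene of astrocytes, at 526 CPM in adult and 133 CPM in embryonic samples, and the other 8 markers, a sum taken after the values were seen, came to 137 to 201 CPM in adult and 1271 to 1350 CPM in embryonic samples. All 6 markers of dividing cells were lower, at 6.41 to 12.2 CPM in adult and 313 to 456 CPM in embryonic samples. The part of these cells in the differences of Sfrp1, Sfrp2, Wnt7a and Wnt7b was not tested.

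The Dickkopf proteins went apart. Dkk2, which binds Lrp5 and Lrp6, was scarce, with 15, 14 and 12 reads in adult samples, against 35, 28, 39 and 31 reads in embryonic samples, a difference of -1.03 ± 0.20 (SE, limma adjusted p = 0.000467). Dkk3, a divergent family member that does not share the Lrp binding of the others, had 287, 220 and 308 CPM in adult samples, against 24.9, 23.5, 31 and 27.3 CPM in embryonic samples. Its adult mean was 10.2 times the embryonic mean, a difference of 3.38 ± 0.12 (SE, limma adjusted p = 1.18e-11). Per kilobase Dkk3 reached 80.8 ± 13.7 CPM per kb in adult samples, above the 7.94 ± 0.97 CPM per kb of embryonic samples (SD, n = 3 and n = 4). In embryonic samples Sfrp1 was the antagonist with the higher level, at 2.43 ± 0.262 CPM per kb in adult and 25.8 ± 2.38 CPM per kb in embryonic samples (SD, n = 3 and n = 4).

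Inside the cell, 2 of the 3 Dishevelled genes were lower in adult cortex. Dvl3 had 47.1, 55.4 and 47.2 CPM in adult samples, against 111, 112, 102 and 103 CPM in embryonic samples, a difference of -1.01 ± 0.08 (SE, limma adjusted p = 1.05e-07). Dvl2 averaged 21.3 ± 0.757 CPM in adult and 42.6 ± 2.87 CPM in embryonic samples (SD, n = 3 and n = 4), a difference of -0.89 ± 0.09 (SE, limma adjusted p = 4.66e-07). Dvl1 had 96.1, 117 and 113 CPM in adult samples, against 118, 121, 120 and 108 CPM in embryonic samples, with overlapping groups and a difference of -0.02 ± 0.09 (SE, limma adjusted p = 0.88). Per kilobase Dvl1 made up 64.4 to 67.6% of Dishevelled RNA in adult and 49.3 to 50.8% in embryonic samples.

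In the destruction complex, Axin1, Apc and the kinase Gsk3b were lower in adult cortex and Axin2 was higher. Axin1, the scaffold present in most cells, had 27.2, 26.8 and 27.2 CPM in adult samples, against 49, 54.3, 51.5 and 48.6 CPM in embryonic samples, a difference of -0.80 ± 0.08 (SE, limma adjusted p = 5.04e-07). Axin2, its relative and a widely used target gene of beta-catenin signalling, had 32.3, 35 and 25.4 CPM in adult samples, against 25.3, 27, 20.9 and 23 CPM in embryonic samples. The Axin2 groups overlapped through adult replicate 3, and the difference was 0.43 ± 0.12 (SE, limma adjusted p = 0.00555). After centring on sample medians, which moved the median of all genes to -0.16, Axin2 stood at 0.25 with an adjusted p of 0.0715. Apc had 426, 498 and 376 CPM in adult samples, against 855, 747, 672 and 836 CPM in embryonic samples, a difference of -0.76 ± 0.11 (SE, limma adjusted p = 1.81e-05). Gsk3b averaged 237 ± 27.9 CPM in adult and 324 ± 25 CPM in embryonic samples (SD, n = 3 and n = 4), a difference of -0.37 ± 0.09 (SE, limma adjusted p = 0.00196).

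Of the nuclear effectors, Tcf7l2 and Lef1 were higher in adult cortex. Tcf7l2, a factor of thalamic neurons and of maturing oligodendrocytes, had 36.6, 30.2 and 18.5 CPM in adult samples, against 7.75, 10.1, 7.43 and 10.4 CPM in embryonic samples. The adult samples spread widely but all lay above the embryonic samples, a difference of 1.64 ± 0.19 (SE, limma adjusted p = 2.89e-06) that was 1.44 without adult replicate 1. Marker sums of both cell types moved with it. Of 8 thalamic markers 6 were higher and 2 did not pass, with sums of 427, 330 and 267 CPM in adult replicates 1 to 3, against 109 to 118 CPM in embryonic samples. All 8 oligodendrocyte markers were higher, with sums of 4965, 6993 and 3909 CPM in adult replicates 1 to 3, against 53.5 to 57.1 CPM in embryonic samples. The order of only 3 adult samples cannot link Tcf7l2 to either cell type. The part of both cell types in the difference of Tcf7l2 was not tested. Lef1, known from hippocampal development and from brain endothelium, had 10.8, 12 and 7.74 CPM in adult samples, against 3.47, 4.03, 3.62 and 3.28 CPM in embryonic samples, with no overlap and a difference of 1.42 ± 0.15 (SE, limma adjusted p = 1.07e-06). Tcf7l1, which acts mostly as a repressor, averaged 4.19 ± 0.537 CPM in adult and 4.27 ± 1.38 CPM in embryonic samples (SD, n = 3 and n = 4), with a difference of 0.09 ± 0.20 (SE, limma adjusted p = 0.694) that turned to -0.09 after centring on sample medians.

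**Figure D5:**
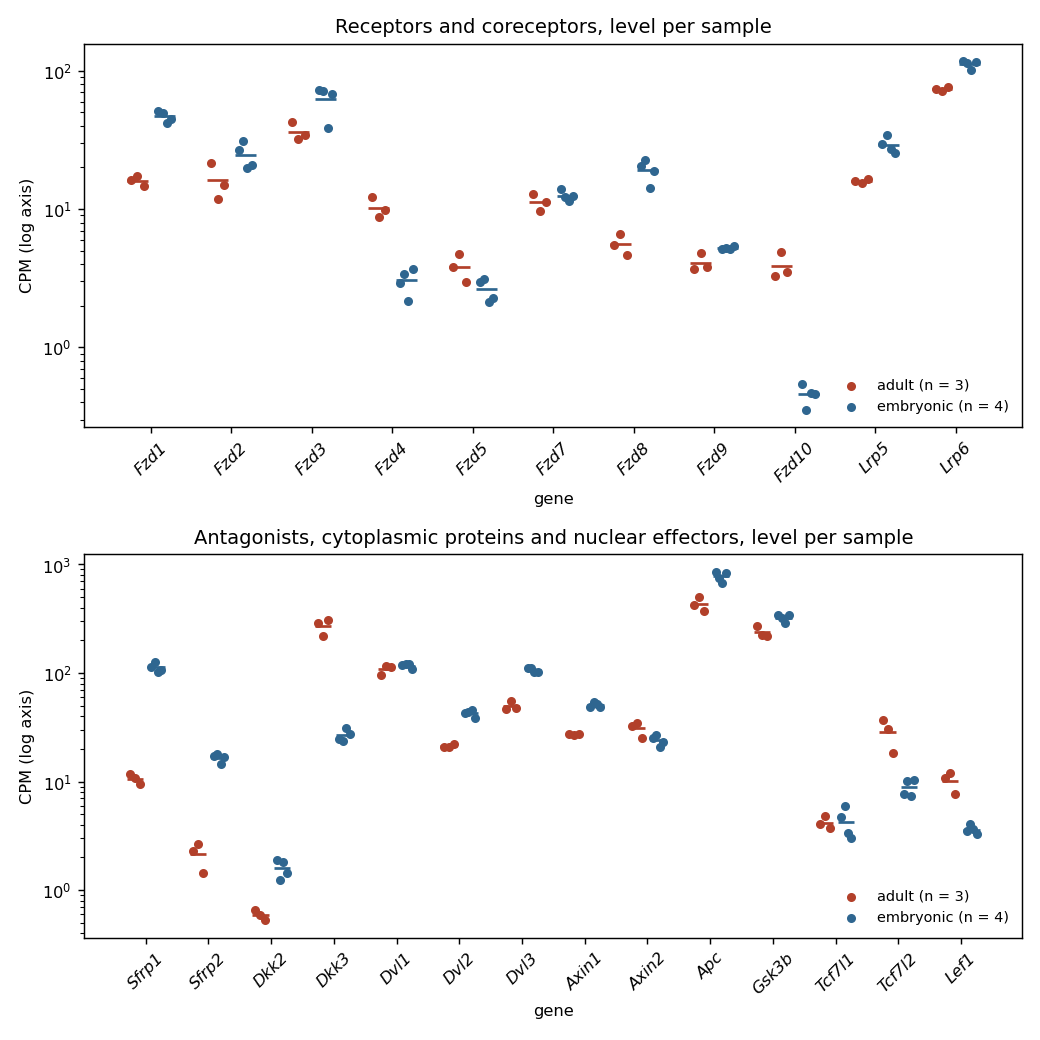
Level of the receptors and coreceptors (top) and of the antagonists, cytoplasmic proteins and nuclear effectors (bottom) in each sample, in CPM on a log axis, with adult samples (n = 3) left of embryonic samples (n = 4) and a line at each mean. Sfrp1 and Sfrp2 are lower and Dkk3, Tcf7l2 and Lef1 are higher in every adult sample, while Dvl1, Fzd7 and Tcf7l1 overlap.

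Beyond the 34 genes, 85 further genes of the pathway were counted in 7 lists, of which 81 could be tested. In all, 40 were higher in adult cortex, 31 were lower and 10 did not pass, beside 35.8% of all genes higher and 33.9% lower, the same shares against which each list below is to be read. The median difference was 0.41, against 0.03 over all genes. Of 8 further Wnt ligands tested, 7 were higher and Wnt11 did not pass. Wnt9b had 40, 53 and 25 reads in adult samples, against 1, 0, 1 and 1 in embryonic samples (3.60 ± 0.42 (SE), limma adjusted p = 3.23e-06), and Wnt10b had 18, 16 and 20 reads against 1, 0, 0 and 0 (3.50 ± 0.48 (SE), limma adjusted p = 1.5e-05). Wnt9b and Wnt10b thus had at most 1 read in any embryonic library, whereas Wnt2b and Wnt3 averaged 4.26 and 2.33 CPM there, against 6.17 and 5.2 CPM in adult samples. Beside the low-level ligands that were higher in adult samples, all 6 markers of meninges and fibroblasts were higher too, with sums of 67.9 to 77.9 CPM in adult and 5.69 to 8.62 CPM in embryonic samples, and their part was not tested.

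Of 12 genes for Wnt release, R-spondins and their receptors, 10 were higher (35.8% of all genes were), Rspo3 was lower and Rspo4 did not pass. Rspo1, which strengthens Wnt signals through Lgr receptors, averaged 6.19 ± 0.815 CPM in adult and 0.371 ± 0.133 CPM in embryonic samples (SD, n = 3 and n = 4; 3.36 ± 0.21 (SE), limma adjusted p = 4.27e-09). Rnf43, a ligase that removes Frizzled receptors, averaged 3.93 ± 0.871 CPM in adult and 0.432 ± 0.0882 CPM in embryonic samples (SD, n = 3 and n = 4; 2.59 ± 0.21 (SE), limma adjusted p = 6.08e-08). Rspo3 averaged 9.6 ± 1.4 CPM in adult and 13.2 ± 1.31 CPM in embryonic samples (SD, n = 3 and n = 4), and its difference of -0.36 ± 0.12 (SE, limma adjusted p = 0.0145) did not pass without adult replicate 2 (adjusted p = 0.0629). Of 10 further antagonists tested, some secreted and some, such as Kremen1 and Kremen2, in the membrane, 8 were higher, Apcdd1 was lower and Dkk1 did not pass. Frzb, a relative of the Sfrp proteins, averaged 16 ± 1.08 CPM in adult and 1.04 ± 0.101 CPM in embryonic samples (SD, n = 3 and n = 4; 3.54 ± 0.13 (SE), limma adjusted p = 2.38e-11). Dkkl1, a relative of the Dickkopf proteins, differed by 3.94 ± 0.20 (SE, limma adjusted p = 4.77e-10) and Apcdd1, a membrane-bound Wnt inhibitor, by -1.33 ± 0.12 (SE, limma adjusted p = 1.71e-07).

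Of 14 other receptors and polarity genes, 6 were higher and 6 lower. The planar polarity gene Celsr1 averaged 10.1 ± 0.461 CPM in adult and 121 ± 25.9 CPM in embryonic samples, and Vangl2, of the same pathway, averaged 19 ± 3.26 CPM in adult and 166 ± 18.9 CPM in embryonic samples (SD, n = 3 and n = 4), with differences of -3.37 ± 0.14 and -3.00 ± 0.12 (SE, limma adjusted p = 6.06e-11 and 4.56e-11). Prickle2 was higher, at 240 ± 7.9 CPM in adult and 56.2 ± 5.59 CPM in embryonic samples (SD, n = 3 and n = 4; 2.17 ± 0.08 (SE), limma adjusted p = 2.59e-11). Ror1, a receptor of Wnt5a, was also higher, by 2.12 ± 0.25 (SE, limma adjusted p = 3.38e-06). Of 16 cytoplasmic regulators, 5 were higher and 11 lower. The neuronal Apc relative Apc2 averaged 194 ± 29.2 CPM in adult and 960 ± 68.5 CPM in embryonic samples, and Dact1, which binds Dishevelled, averaged 5.18 ± 1.18 CPM in adult and 47.5 ± 3.21 CPM in embryonic samples (SD, n = 3 and n = 4), with differences of -2.22 ± 0.10 and -2.98 ± 0.13 (SE, limma adjusted p = 1.43e-10 and 8.89e-11). Dact3, a relative of Dact1, went the other way, by 2.25 ± 0.11 (SE, limma adjusted p = 3.57e-10). The formin Daam2, which binds Dishevelled, was higher by 2.68 ± 0.11 (SE, limma adjusted p = 6.65e-11), while its relative Daam1 was lower, at -1.08 ± 0.10 (SE, limma adjusted p = 2.42e-07).

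Of 13 nuclear regulators, among them coactivators, corepressors, the beta-catenin inhibitors Ctnnbip1 and Cby1 and the factor Tcf7, 11 were lower (33.9% of all genes were) and Tcf7 and Cby1 did not pass. Bcl9, a partner of beta-catenin, averaged 57.4 ± 5.62 CPM in adult and 198 ± 12 CPM in embryonic samples, and the corepressor Tle3 averaged 52.4 ± 1.3 CPM in adult and 172 ± 8.26 CPM in embryonic samples (SD, n = 3 and n = 4), with differences of -1.69 ± 0.09 and -1.61 ± 0.07 (SE, limma adjusted p = 6e-10 and 1.72e-10). Of 8 genes known as beta-catenin targets in several tissues, 4 were higher, Myc was lower and 3 did not pass. Myc averaged 4.6 ± 0.75 CPM in adult and 26.3 ± 1.27 CPM in embryonic samples (SD, n = 3 and n = 4; -2.29 ± 0.11 (SE), limma adjusted p = 3.63e-10). Cd44 and Tbx3 were higher, by 1.10 ± 0.16 and 1.01 ± 0.15 (SE, limma adjusted p = 2.49e-05 and 2.6e-05). The target genes thus did not share a direction.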

How the data were processed

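Cortical RNA was taken up in trizol and made into libraries with Illumina's mRNA kit, according to the protocols in the labels. The submitters' processing notes list SAMtools 0.1.7a, HTSeq 0.5.3p3, Bowtie 0.12.7.0, TopHat 1.0.13 and CASAVA 1.7.1 with the mm9 build, without saying which did what. No source used here says whether reads were counted by strand, so genes on opposite strands that overlap cannot be told apart. In the gene table the authors deposited log2-like values after a variance-stabilizing transformation. In the exon table they deposited a score, in the file headers 1 over a ratio. From the values, each stands for a whole number near the gene's reads divided by the exon's reads, and shares are 100 divided by it, so they are coarse and need not sum to 100 over a gene.

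Read counts were recovered from the steps of the gene values. At least 99.9973% of values per sample came out within 0.1 of a whole number. The lowest 60 steps of each sample, 60.55 to 63.23% of its values, were assigned whole numbers in advance and count in that share. The method was also tested on simulated counts put through the curve recovered from these data. That test could not show an error in the lowest steps. CPM, per-kilobase levels (union of GENCODE M21 exons) and exon shares only describe levels. Counts cover reads, not molecules. Samples of 1 group differed by more than counting noise, at 4.83 to 17.7 chi-square units per degree of freedom.

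Deposited values were tested in limma 3.58.1 (R 4.3.3) by lmFit and trended eBayes, two-sided, all 7 samples and no covariate. A gene was dropped if over 3 of 7 samples stood at the lowest value. Exons were tested with diffSplice, and on each exon's own spread, a setting chosen after seeing the data. Alternatives were centring, voom on recovered counts, log2 of CPM plus 1 or 0.1, other filters, no trend, a replicate block and leaving out each sample. All 34 genes are named. From the other pathway lists the text gives values, per list, for the 2 called genes with the largest difference in each direction. Per gene with a called exon it gives the largest in each direction. Values of Wnt2b, Wnt3, Fzd6, Daam1, the Wnt7b-203 exon and exon 2 of Lrp6 were added outside this rule. The genes and lists were chosen with earlier results of these data known. Sequences and exon numbers come from GENCODE M21 and the GRCm38 genome, and exon coordinates from the mm9 files were not converted. Tables were made with Python 3.11.15.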

Additional observations from a re-analysis of the deposited data

Results flagged for a closer look

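In the embryonic group of 4, a single sample stood far from the other 3 in 3 of the 34 genes, measured on the deposited values as the gap to the nearest sample divided by the range of the group and set against Dixon's 95% critical value for 4 samples. Chance gives this in about 1 in 20 groups. For Wnt10a the value was 1, because embryonic replicate 4 had 2 reads and the others had 0. For Fzd3 it was 0.888, with embryonic replicate 3 at 38.9 CPM below the other samples at 68.3 to 72.2 CPM. For Dvl1 it was 0.844, with embryonic replicate 4 at 108 CPM below the other samples at 118 to 121 CPM. On CPM the ratios were 1, 0.884 and 0.814 in the same order of genes, and Dvl1 would then not exceed the critical value. No cause was tested. The adult group of 3 is too small for this rule.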

How the results depend on the processing

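Of the 34 Wnt genes, 25 kept their direction and their side of the threshold under every alternative run, and 9 did not. With a sample left out, Fzd7 ranged from -0.16 to 0.02, Dvl1 from -0.08 to 0.08 (0.00 without embryonic replicate 2) and Tcf7l1 from -0.05 to 0.26 (-0.00 without adult replicate 2), while Tcf7l1 turned to -0.09 after centring and to -0.05 with the replicate block. None of these 3 genes passed the test as reported. Without the filter, Fzd2, Fzd3, Fzd5 and Axin2 had adjusted p of 0.167, 0.099, 0.0791 and 0.0588, so lower receptors numbered 2 and higher destruction complex genes 0, a count that was also 0 after centring. Wnt5a and Fzd9 passed as lower after centring, with voom and with either log2 of CPM. Lower genes among Wnt release and R-spondins numbered 0 without the filter and 0 to 1 with a sample left out. Lower beta-catenin targets numbered 2 after centring, with voom, with either log2 of CPM, among genes with reads in all 7 samples and with the block, and 1 to 2 with a sample left out. Called exons of the 34 genes numbered 4 on the exon's own spread and 6 to 12 with a sample left out, and 6 without embryonic replicate 4. All exons called numbered 1629 on their own spread, 2761 without adult replicate 2 and 6804 without adult replicate 3. After centring, 43.6% of all calls pointed up in adult cortex, against 51.4% as reported. After group means were subtracted, the deviations of same-numbered adult and embryonic samples correlated at 0.01, 0.06 and 0.04. Pairs with different numbers gave -0.05 to 0.06, so these correlations showed no pairing by number. With the replicate block 8006 genes were higher and 7549 lower, with 11 and 16 of the Wnt genes. The causes were not tested. Depth limits Wnt8b, with 8 and 5 reads in adult and embryonic samples, and exons with few reads.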
